A study of Mus musculus with 6 samples.

Results

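Catalogues have carried RNAs as mouse microRNAs that are of doubtful origin or have since been traced to other RNAs, and 6 such array entries were described in mouse oocytes: mmu-miR-720, mmu-miR-709, mmu-miR-712, mmu-miR-715, mmu-miR-801 and mmu-miR-805. They were taken by name from the 577 microRNA entries of the array, which was designed on miRBase release 10.1, and all 6 were found. They were chosen by their origin and selected on their signal, detection call and share of the detected signal over the 6 arrays, so their levels, calls and shares are given as descriptions. The differences between groups further on were fitted to the same signals, over the whole array, and their p-values are not independent of that choice. The study compared 3 groups of 2 one-colour arrays, all of total RNA from pooled oocytes of C57BL/6 mice. Aged large oocytes measured 60 to 80 µm and came from mice of 41 to 43 weeks by the age label and 42 to 44 weeks by the sample description. Young large oocytes were as wide, from mice of 6 to 8 weeks, and the titles call both kinds growing. Young small oocytes measured 20 to 50 µm, came from mice of 6 to 8 weeks, and are called non-growing in the titles and assigned to primordial follicles in the stage label. Samples were run in duplicate by the series text. Whether duplicates came from separate animals or pools is not given, so the p-values rest on array-to-array spread that may be purely technical.

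A microRNA is cut from a hairpin by Drosha and Dicer and loaded into an Argonaute protein, where bases 2 to 8, the seed, pair with target messages. Catalogues of the time were built from cloned and sequenced short RNAs, and fragments of abundant housekeeping RNAs entered them beside hairpin products. An array probe reads any labelled RNA with the matching end, whatever its origin. miR-720 has since been recognised as a fragment of a threonine transfer RNA. miR-712 comes from a spacer of the ribosomal RNA precursor. miR-801 is listed in RefSeq as another name of Rnu11, the U11 small nuclear RNA of the minor spliceosome. miR-805 maps to the mitochondrial genome. miR-709 is listed as a microRNA gene within the span of Rfx1, a transcription factor gene, and is known as a nuclear RNA that binds the precursor of miR-15a and miR-16. Mouse oocytes are known for weak repression by microRNAs, although they use small interfering RNAs.

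miR-709, miR-712, miR-715 and miR-720 carry numbers from a single run of entries, from 680 to 720. Of the 6 entries described here, 0 had a mature sequence of the same name in the RefSeq table of build GRCm38.p6, and 2 had a RefSeq gene. Of the 14 detected entries of the numbered run, in a search that left out a chromosome, 6 others had a mature sequence there. They are shown 5′ to 3′, with the seed in capitals, because they are the detected neighbours of the 4 numbered entries whose letters are at hand.
miR-706: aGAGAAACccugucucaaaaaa
miR-690: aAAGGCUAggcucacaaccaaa
miR-705: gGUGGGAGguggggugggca
miR-697: aACAUCCUgguccuguggaga
miR-710: cCAAGUCUuggggagaguugag
miR-711: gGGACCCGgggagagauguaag
None of these 6 shared a seed with another, and their GC content ran from 36.4% in miR-706 to 75% in miR-705, of whose bases 70% were G.

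The arrays differed in brightness, which bears on every value below. The factor that put each array on a common scale was 0.954 and 1.06 for aged large oocytes, 1.94 and 1.48 for young large oocytes, and 0.582 and 0.589 for young small oocytes. It is the 75th percentile of the 56 entries that every array detected, divided by that percentile's geometric mean. No label used here gives the number of oocytes or the amount of RNA per array, so fewer oocytes and less RNA per oocyte cannot be told apart. Of the markers of oocytes and early embryos, the miR-290 to miR-295 cluster, 8 of 11 entries were detected. Their summed scaled signal was 143.7 to 146.4 in aged large, 124 to 140 in young large and 39.1 to 42.2 in young small oocytes. Not every entry followed that order. miR-291b-5p averaged 4.98 in young large and 11.2 in young small oocytes, while the means of the other tested entries were higher in young large oocytes. Mean signals of miR-291a-3p and miR-295 were lower in aged large than in young large oocytes, and those of the other tested entries higher. The granulosa cell list had 3 of 6 detected (miR-21, miR-212 and miR-320; not miR-132, miR-224 or miR-383). The blood cell list had 1 of 5 detected (miR-223; not miR-142-3p, miR-142-5p, miR-144 or miR-451). Of the stroma and endothelium lists, 0 of 4 and 0 of 2 entries were detected.

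miR-720 was the brightest microRNA entry on every array. Its raw signal, the deposited background-subtracted intensity, was 25976 and 26845 in aged large, 34481 and 31266 in young large, and 15223 and 15761 in young small oocytes. The raw groups did not overlap: young large oocytes were highest and young small oocytes lowest. The deposited error was between 8.13% and 8.30% of the signal on all 6 arrays. After scaling, the signal was 27237 and 25332 in aged large, 17747 and 21075 in young large, and 26134 and 26745 in young small oocytes. On that scale young large oocytes were lowest, while aged large and young small oocytes overlapped.

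miR-720 took 90.3% ± 0.384 of the detected signal in aged large, 89.0% ± 0.707 in young large and 90.8% ± 0.295 in young small oocytes (± SD of 2 arrays). Its share ranged from 88.5% to 91.0% over the arrays. The other detected entries together had 2696 and 2965 raw units in aged large, 4465 and 3654 in young large, and 1574 and 1550 in young small oocytes. A share is a share of fluorescence, which also depends on the probes and on labelling, and not a share of molecules. Flags for saturated spots were not used here, so a compressed top of the scale was not tested for miR-720.

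**Figure D1:**
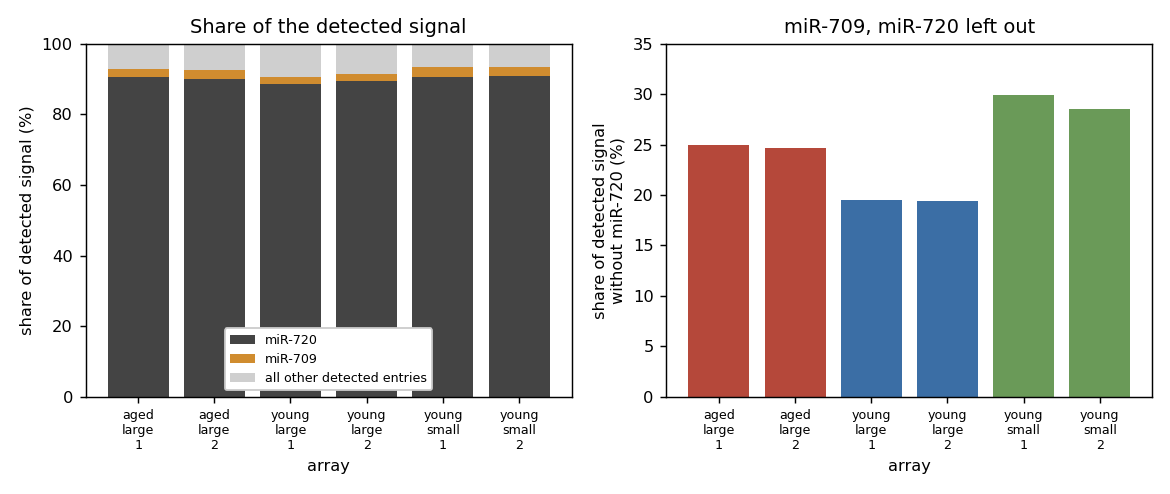
Left, the share of the detected signal (%) taken by miR-720, miR-709 and all other detected entries on each of the 6 arrays; right, the share of miR-709 (%) once miR-720 is left out. miR-720 takes between 88.5% and 91.0% of every array, and miR-709 is between 19.4% and 30.0% of what remains.

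miR-709 was the second brightest entry on each of the 6 arrays. Its raw signal was 673 and 731 in aged large, 870 and 710 in young large, and 472 and 442 in young small oocytes. Aged large and young large oocytes overlapped in raw signal, and both lay above young small oocytes. The scaled signal was 706 and 690 in aged large, 448 and 479 in young large, and 810 and 750 in young small oocytes. None of the 3 groups overlapped on the scaled values, with young large oocytes lowest and young small oocytes highest.

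The share of miR-709 in the detected signal was 2.40% ± 0.0733 in aged large, 2.13% ± 0.142 in young large and 2.68% ± 0.180 in young small oocytes (± SD of 2 arrays). With miR-720 left out of the sum, miR-709 made up 24.8% ± 0.227 in aged large, 19.5% ± 0.0387 in young large and 29.2% ± 1.02 in young small oocytes (± SD of 2 arrays). The ratio of the raw signal of miR-720 to that of miR-709, which no scaling of the arrays touches, was 38.6 and 36.7 in aged large, 39.6 and 44.04 in young large, and 32.3 and 35.7 in young small oocytes. It was highest in young large and lowest in young small oocytes, without overlap. Below miR-709 the next brightest entry was miR-1224 in all 3 groups, with 222.0 ± 7.94 raw units in aged large, 295.1 ± 29.6 in young large and 126.3 ± 4.09 in young small oocytes (± SD of 2 arrays). It was followed by miR-483 and let-7f in aged large, by miR-19b and let-7f in young large, and by miR-92a and let-7f in young small oocytes.

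miR-712, from the ribosomal precursor, was dim but above background on each of the 6 arrays. It had a raw signal of 13.2 and 13.9 in aged large, 19.4 and 17.3 in young large, and 6.60 and 4.60 in young small oocytes. The 3 groups did not overlap on that scale, in the same order as miR-720. Scaled, it had 13.9 and 13.2 in aged large, 9.98 and 11.6 in young large, and 11.3 and 7.81 in young small oocytes. Aged large oocytes were then highest, and the other groups overlapped. The scaled duplicates of young small oocytes lay 0.54 apart on the log2 scale. That gap ranked 2 from the widest of the 56 entries detected on all arrays, whose median gap there was 0.07. The opposite arm, miR-712*, was called detected on 1 array only, young large array 2, with 2.26 raw units. By mean raw signal miR-712 ranked 48 in aged large, 50 in young large and 54 in young small oocytes.

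miR-715 was likewise detected on all 6 arrays, and its duplicates disagreed in 1 group. The raw signal was 8.17 and 10.8 in aged large, 9.53 and 22.0 in young large, and 8.79 and 7.93 in young small oocytes. Young large array 2 stood above all the others, at 2.31 times its duplicate before scaling and 3.02 times after it. The scaled values were 8.57 and 10.2 in aged large, 4.91 and 14.8 in young large, and 15.1 and 13.5 in young small oocytes. The gap within young large oocytes was the widest of the 56 entries detected on all arrays, whose median gap there was 0.08 on the log2 scale against 1.60 for miR-715. By mean raw signal miR-715 ranked 61 in aged large, 57 in young large and 41 in young small oocytes.

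That gap was shared by other entries, most but not all of them dim. Of 94 entries detected on both young large arrays, 6 differed at least 2-fold in scaled signal: miR-715, miR-345-5p, miR-483*, miR-484, miR-702 and the viral entry mghv-miR-M1-2. All 6 were lower on array 1, by between 2.20-fold and 3.02-fold. In aged large and young small oocytes 0 of 77 and 0 of 56 entries differed that much between duplicates.

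**Figure D2:**
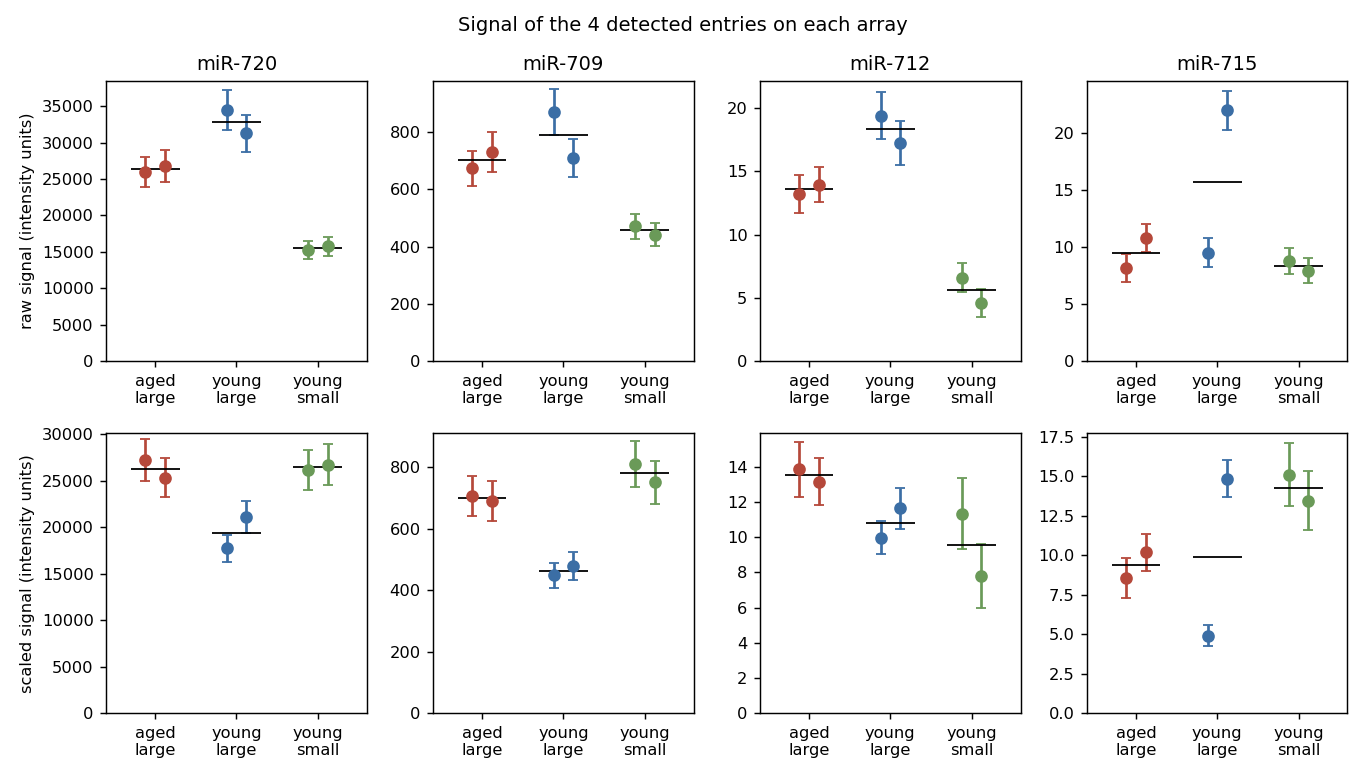
Raw signal (top row) and scaled signal (bottom row), both in intensity units, of the 4 detected entries; each point is an array with its deposited error, and black lines are group means. Young large oocytes are highest in raw signal of miR-720, miR-709 and miR-712 by their means, and lowest in scaled signal of miR-720 and miR-709.

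miR-801 and miR-805 were not detected on any of the 6 arrays. miR-801, the U11 entry, had raw signals of 0.905 and 1.21 in aged large, 2.55 and 2.52 in young large, and 0.0629 and 1.33 in young small oocytes. Each was at most 1.54 times its deposited error. The mitochondrial entry miR-805 had -0.0170 and -1.02 in aged large, 0.430 and -0.383 in young large, and -0.0638 and -1.22 in young small oocytes. Its highest value was 0.370 times its error. The dimmest detected entry had 2.81 and 1.76 raw units in aged large, 3.07 and 1.40 in young large, and 3.36 and 3.64 in young small oocytes. On young large array 2 the undetected miR-801 lay above that entry. No fold is given for either, and not well above background does not mean absent.

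**Figure D3:**
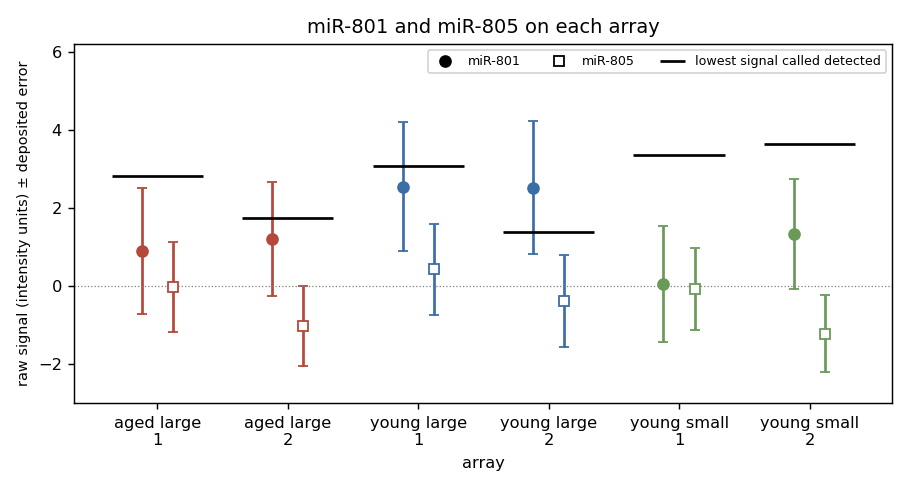
Raw signal (intensity units) of miR-801 (filled circles) and miR-805 (open squares) on each array with the deposited error, and the lowest signal that was called detected on that array (black line). All 12 points are undetected, from -1.22 to 2.55.

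Aged large oocytes were first set against young large ones, the contrast that by the series text concerns reproductive ageing. miR-709 rose in aged large oocytes relative to the entries that set the scale, with a scaled signal of 698 ± 11.5 in aged large and 463 ± 21.8 in young large oocytes (± SD of 2 arrays). The log2 difference was 0.59 ± 0.06 (SE; limma across all tested entries, adjusted p = 0.0067). miR-720 had 26284 ± 1347 in aged large and 19411 ± 2353 in young large oocytes (± SD of 2 arrays), a log2 difference of 0.44 ± 0.10 (SE), and did not pass the threshold of 0.05 (limma, adjusted p = 0.0575). Neither miR-712, at 0.33 ± 0.22 on the log2 scale, nor miR-715, at -0.03 ± 0.50 (SE), passed (limma, adjusted p = 0.395 and 1).

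To be tested, an entry had to be detected on both arrays of a compared group, and 4 of the 6 were. Of these 4, 1 passed, against 29.9% of the 97 entries tested, 14 higher and 15 lower. The 29 calls became 16 without young small array 1 and 19 when either the other young small array or array 1 of the young large group was left out. The groups did not overlap for 3 of the 4, against 60.8% of all tested. Fitted over only the 56 entries detected on all arrays, as these 4 were, 25 passed, 13 higher and 12 lower. miR-720 and miR-709 were among the higher. The median log2 difference of the 4 was 0.38, beside 0 over the 97 and 0.12 over the 56 entries detected on all arrays. By the size of the difference miR-709 ranked 13 of the 97 and miR-720 ranked 23. The summed scaled signal of detected granulosa cell markers was 37.1 to 47.7 in aged large and 30.6 to 30.7 in young large oocytes. Among those markers only miR-320 passed, with a log2 difference of 0.78 ± 0.17 (SE; limma, adjusted p = 0.0443). miR-212 had 0.45 ± 0.38 and miR-21 had -0.03 ± 0.11 (SE), and neither passed (limma, adjusted p = 0.469 and 0.994). The scaled signal of the blood cell marker miR-223 was 50.5 to 54.3 in aged large and 23.7 to 25.0 in young large oocytes. The part of such cells in the rise of miR-709 was not tested.

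Young large oocytes were then set against young small ones, which the series text ties to oocyte growth. This comparison and the first share the young large arrays. miR-709 and miR-720 both fell relative to the entries that set the scale. miR-709 had 463 ± 21.8 in young large and 780 ± 42.1 in young small oocytes (± SD of 2 arrays), a log2 difference of -0.75 ± 0.06 (SE; limma, adjusted p = 0.00396). miR-720 had 19411 ± 2353 in young large and 26439 ± 432 in young small oocytes (± SD of 2 arrays), a log2 difference of -0.45 ± 0.10 (SE; limma, adjusted p = 0.0447). miR-712 had 0.20 ± 0.22 and miR-715 -0.57 ± 0.50 (SE), and neither passed (limma, adjusted p = 0.588 and 0.456).

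Of the 4 entries tested, 2 passed, both lower, against 37.2% of the 94 entries tested and 19.1% called lower. The 35 calls became 13 without young small array 1. In 2 of the 4 the groups did not overlap, against 64.9% of all tested. Fitted over only the 56 entries detected on all arrays, as these 4 were, 31 passed, 11 higher and 20 lower. miR-720 and miR-709 were among the lower. The median log2 difference of the 4 was -0.51, beside 0 over the 94 and -0.27 over the 56 entries detected on all arrays. The call of miR-720 was lost when any 1 of 5 arrays was left out and held only without young large array 2 (limma, adjusted p = 0.0316 there, and 0.0661 to 0.164 otherwise). With the replicate number as a block its adjusted p was 0.104. miR-709 kept its call in both comparisons whichever array was left out (limma, adjusted p from 0.015 to 0.0495). The summed signal of detected granulosa cell markers was 30.6 to 30.7 in young large and 22.1 to 32.1 in young small oocytes. miR-223 had 23.7 to 25.0 in young large oocytes and was not detected in young small oocytes. The part of other cells in these differences was not tested.

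Without scaling, the direction of both entries reversed in both comparisons. Of 9 scalings, counting the main one and none, miR-709 was higher with age in 7 and lower with growth in 7. It reversed only without scaling and was 0 under quantile normalization. miR-720 with growth also turned, to 0.05, with the percentile over all entries. Unscaled, young large oocytes had the higher miR-720 signal than aged large oocytes, with a log2 difference of aged minus young large of -0.31 ± 0.09 (SE; limma, adjusted p = 0.0421), and the difference of young large minus young small oocytes was 1.08 ± 0.13 (SE; limma, adjusted p = 0.000512). For miR-709 the unscaled differences were -0.16 ± 0.13 and 0.78 ± 0.15 (SE; limma, adjusted p = 0.339 and 0.00359). Unscaled, 3 entries were higher and 55 lower with age, and 84 higher and 0 lower with growth, and the median of all tested entries lay at -0.65 with age and 1.23 with growth. Relative to those medians miR-720 and miR-709 stood higher with age and lower with growth, as on the scaled values. Over all alternatives tried, the adjusted p of limma ran from 0.00809 to 1 for miR-720 and 0.00346 to 1 for miR-709 with age, and from 0.000512 to 1 for miR-720 and 0.00122 to 1 for miR-709 with growth.

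miR-720 itself sets any scaling by summed signal. With the total detected signal as the scale, miR-720 differed by 0.02 ± 0.01 with age and -0.03 ± 0.01 with growth (log2, SE), which its share of the total fixes by construction. The split of calls was then 4 higher to 24 lower with age and 26 higher to 1 lower with growth, beside 14 to 15 and 17 to 18 on the main scale, and the median of all tested entries lay at -0.15 and 0.14. With the 6 entries left out of the total, miR-720 had 0.30 ± 0.07 with age and -0.48 ± 0.07 with growth (log2, SE), the first not past the threshold and the second past it (limma, adjusted p = 0.0562 and 0.0141). The split was then 11 to 20 with age and 18 to 19 with growth. miR-709 had 0.45 ± 0.04 with age and -0.78 ± 0.04 with growth on that scale and passed in both (limma, adjusted p = 0.00649 and 0.00478). Leaving the 6 entries out of the percentile gave miR-720 0.44 ± 0.09 with age (SE; limma, adjusted p = 0.0475), past the threshold. Of the other scalings, the 4 hur control entries gave splits of 5 to 18 and 21 to 2, quantile normalization 8 to 17 and 19 to 11, the median of common entries 16 to 12 with age, and the percentile over all entries 3 to 3 and 17 to 0, with the median of all entries at 0.22 in growth. Quantile normalization fixes the first and second rank, so miR-720 and miR-709 had a difference of 0 there in both comparisons. The percentile over all entries lies low, since each array detected 57 to 102 of the 577 entries, fewer than lie above it.

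**Figure D4:**
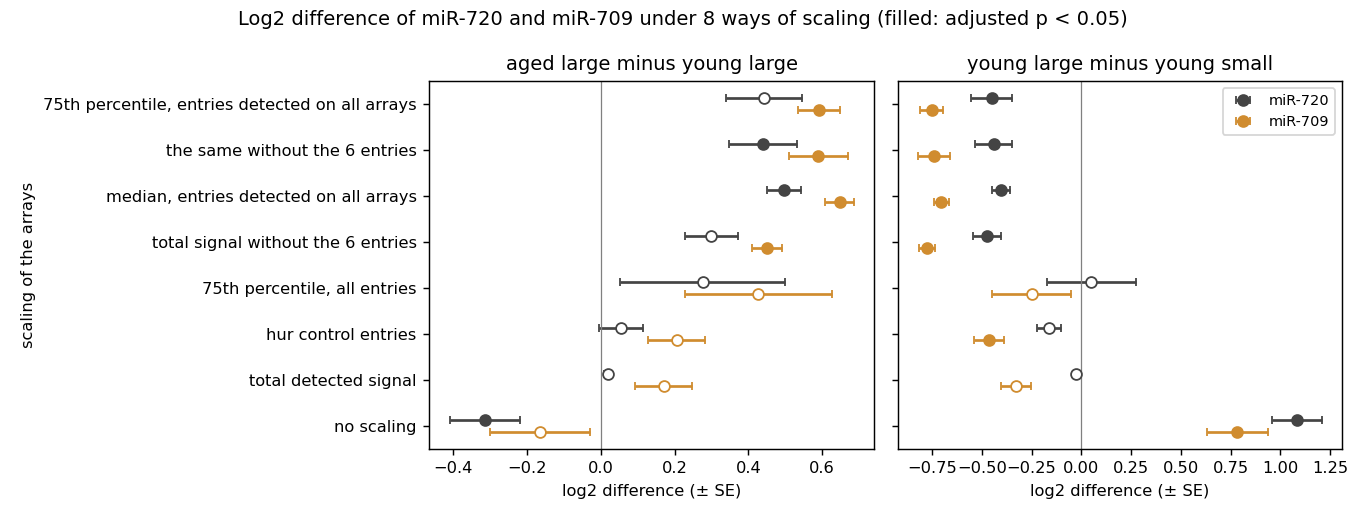
Log2 difference (± SE) of miR-720 and miR-709 between aged large and young large oocytes (left) and between young large and young small oocytes (right) under 8 ways of scaling the arrays; filled points passed an adjusted p of 0.05. With the total detected signal miR-720 sits at 0.02 and -0.03, and without scaling both entries change sign.

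Entries with the pattern most like each one across the 6 arrays were found by the root mean square difference of the centred log2 scaled signal, over the other 55 entries detected on all arrays. For miR-720 these were miR-1224, miR-494 and miR-689, at 0.07, 0.10 and 0.10, against a median of 0.32 over all 55. For miR-709 they were let-7d, miR-877* and let-7i, at 0.08, 0.13 and 0.13, against a median of 0.36. miR-712 had no close match: miR-320, miR-671-5p and miR-107 lay at 0.21, 0.22 and 0.23, against a median of 0.40. For miR-715 they were miR-483*, miR-702 and miR-345-5p, at 0.09, 0.13 and 0.19, against a median of 0.44.

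All 3 entries nearest to miR-715 belong to the 6 that were low on young large array 1. Scaled, miR-715, miR-483*, miR-702 and miR-345-5p had 4.91, 4.97, 4.44 and 4.94 there, all under the floor of 6.17. The floor thus made them equal on that array, and part of their likeness is fixed by it. Without that array, a check added after the data were seen, miR-715 kept 1 of the 3, miR-483*, and miR-19b and miR-141 took the other places. miR-720 kept 1 of its 3, miR-1224, and miR-709 kept 2, let-7d and let-7i. miR-712 kept all 3. These likenesses rest on 6 points that share their labelling, scaling and array.

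**Figure D5:**
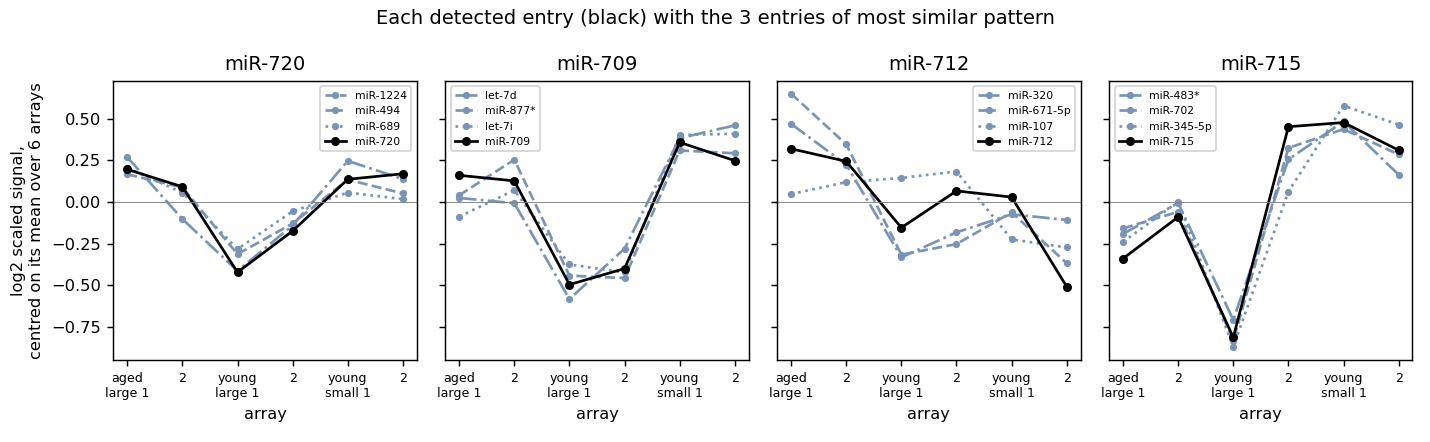
Log2 scaled signal, centred on the entry's own mean over the 6 arrays, for each detected entry (black) and the 3 entries with the most similar pattern (blue), by array. miR-720 and miR-709 dip on both young large arrays, while miR-715 and its 3 neighbours drop on young large array 1 alone.

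Most of the numbered run had no detected call, and the same held for the whole array. Of the 43 entries of the run, 14 had a detected call on some array and 8 on every array. These are 32.6% and 18.6% of the run, beside 18.7% and 9.71% of the 577 entries. Without the 4 entries described above, 10 of 39 were detected somewhere, or 25.6%, and 4 on every array: miR-689, miR-690, miR-702 and miR-706. Their raw signals ran from 37.02 to 99.2 for miR-689, 12.3 to 35.004 for miR-690, 6.65 to 17.9 for miR-702 and 11.1 to 35.04 for miR-706. miR-705 was detected on 3 arrays, miR-697 and miR-710 on 2 each, and miR-711, miR-714 and miR-712* on 1 each. None of those 6 exceeded 8.49 raw units. No young small array detected any of them, but those arrays called the fewest entries of all, 57 and 60, against 79 to 102 on the others.

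With miR-720 left out, the run made up 30.7% and 29.6% of the detected signal in aged large, 24.7% and 25.2% in young large, and 35.4% and 33.7% in young small oocytes. Most of that was miR-709. Apart from the 4 described entries, 6 entries of the run were tested with age and 5 with growth, and 0 passed in either direction by limma in either comparison, beside the 29.9% and 37.2% given above. At an unadjusted p under 0.05 the count was also 0 in both, beside 41 of all 97 entries tested with age and 43 of all 94 with growth. Their median log2 differences were 0.09 with age and -0.21 with growth, among them entries at or near the floor such as miR-705 and miR-710. The brightest of them, miR-689, had a mean scaled signal of 68.1 in aged large, 55.4 in young large and 63.7 in young small oocytes. Its log2 difference was 0.30 ± 0.10 with age and -0.21 ± 0.10 with growth (SE; limma, adjusted p = 0.123 and 0.227). miR-690 had 21.6 in aged large, 18.5 in young large and 21.7 in young small oocytes, with log2 differences of 0.22 ± 0.11 and -0.23 ± 0.11 (SE; limma, adjusted p = 0.256 and 0.226). In both entries young large oocytes were lowest, without overlap with either other group. The compared groups were likewise apart in 60.8% of all entries tested with age and 64.9% with growth.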

How the data were processed

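Total RNA of pooled oocytes was labelled with cyanine 3 and hybridised to 6 one-colour arrays, per the labels. The submitters' processing notes name Agilent Feature Extraction 9.5. Each deposited scanner file holds, per the file headers, a total signal intensity per entry, its error, a detected call and the fraction of its spots kept as inliers. These intensities are linear and background-subtracted, with no normalization between arrays, and the series table holds them too, with values under 10 at 0. No genome build is given in the sources used here.

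Of the entries, 577 microRNA entries were used and 23 control entries left out. Scaled signals under 6.17, the highest of the 6 arrays' dimmest detected values, were raised to it before taking log2. The floor applied to miR-715 on 1 array. Group means were fitted with limma 3.58.1 (lmFit, eBayes; R 4.3.3) on all arrays together (3 residual degrees of freedom; two-sided; Benjamini-Hochberg over all tested entries). In the fit with age, 16 entries lay at the floor on every array, and the prior SD was 0.00743 with 0.441 prior degrees of freedom. Means ± SD precede the floor. The number of arrays limits the precision.

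The entries and lists were chosen with earlier results of these data known. Named entries are the 6, the 3 of most similar pattern and the 3 next in brightness to each, and the detected entries of the numbered run; of those next in brightness, the ones below miR-712 and miR-715 are not printed, and the entries apart between duplicates and those nearest without array 1 were named after their values were seen. Alternatives were other scalings, floor, filters, the series table, moderation, fewer arrays and the replicate number as a block. Figures were drawn with matplotlib 3.10.9.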

Additional observations from a re-analysis of the deposited data

Results flagged for a closer look

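Signals outside the comparisons came from 6 control entries detected on all 6 arrays. Their mean raw signal over the arrays was 32194 for hur_2, 7864 for hur_1, 6558 for hur_6, 3275 for hur_4, 612 for miRNABrightCorner30 and 479 for mr_1. hur_2 averaged 33158 in aged large, 45401 in young large and 18023 in young small oocytes, the same order as the raw signal of miR-720. mr_1 averaged 324, 516 and 596 in those groups, another order. No group has the 4 samples that a check for single outlying samples needs.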

How the results depend on the processing

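The number of entries past the threshold with age was 29 and became 58 with no scaling, 6 with the percentile over all entries, 12 without a filter, 16 with the replicate block and 16 to 30 when 1 array was left out (lowest without young small array 1). With growth it was 35 and became 84, 17 and 1 under the first 3 of these, 23 with hur entries, 22 with the series table (18 higher, 4 lower) and 13 to 36 when 1 array was left out (lowest without young small array 1). miR-709 with age lost its call with the percentile over all entries (0.43), the total signal (0.17), hur entries (0.21), quantile normalization (0) and no filter (0.59), and reversed without scaling (-0.16). With growth it lost the call with the percentile over all entries (-0.25), the total signal (-0.33), quantile normalization (0) and no filter (-0.75), and reversed without scaling (0.78). miR-720 with age gained a call with the median (0.50), the percentile without the 6 entries (0.44), a pseudocount of 1, detection on all arrays or no entries at the floor (0.44 each) and the 4 arrays alone (0.38), reversed without scaling (-0.31), and ranged from 0.32 to 0.57 when 1 array was left out, with a call without young large array 2 (0.57; limma, adjusted p = 0.0321). With growth miR-720 lost its call under 14 of 24 alternatives: the total signal (-0.029), hur entries (-0.16), quantile normalization (0), the series table (-0.11), no filter, robust eBayes, the 4 arrays alone and both blocks (-0.45 each), and 5 of the 6 left-out arrays (-0.58 to -0.33 over all 6). It reversed with the percentile over all entries (0.051) and without scaling (1.08). The cause was not tested, except that quantile normalization fixes both ranks and the total is mostly miR-720.

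miR-712 with age reversed without scaling (-0.43), with the total signal (-0.095) and with hur entries (-0.060), and was called with the 4 arrays alone (0.27); with growth it reversed without young small array 2 (-0.10) and was called without scaling (1.73). miR-715 with age reversed with the median (0.074), a pseudocount (0.10), the 4 arrays alone (0.074) and without aged large array 1 (0.09), young large array 2 (0.60) or young small array 2 (0.0078), with -0.67 to 0.60 when 1 array was left out. With growth it reversed without scaling (0.79) and without young large array 1 (0.058), and was called without young large array 2 (-1.21; limma, adjusted p = 0.0427, within 0.0427 to 1 over its alternatives).

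Arrays of 1 number are not said to share a preparation. Their deviations correlated at 0.15 over 56 entries between aged large and young large oocytes and at -0.16 between young large and young small oocytes. The replicate block left 16 calls with age and 26 with growth, and the crossed pairing, added after the data were seen, also 26. In the series table miR-712 and miR-715 were at 0 on 2 and 4 arrays, so miR-715 could not be fitted there. Dim entries such as miR-712, miR-715 and miR-801 limit what the arrays can show.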
